A study of Homo sapiens with 16 samples.

Results

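The genes described here are 36 RNA-binding regulators of splicing: the heterogeneous nuclear ribonucleoproteins (hnRNPs), the polypyrimidine tract binding proteins and a set of other factors that includes MBNL, TIA and RBM proteins. They were chosen by gene symbol, with no measured value in the rule, though earlier results of these data were known at the choice. All 36 were found among the 55510 symbols counted, and all 36 were among the 22007 genes with enough counts to be tested. They form 7 groups by family or binding preference: 7 A/B and D type hnRNPs, 7 hnRNPs of the C, R, M, K and U types, 4 of the H/F family, 5 of the PTB and L family, 5 of the MBNL, CELF, QKI and KHDRBS1 group, 3 binders of U-rich RNA and 5 RBM proteins.

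RNA was sequenced from CAL51 cells, a human line established from a triple-negative breast cancer, used at passage 10 as 1 line without any engineered allele named in the labels. The compound, CC-671, is an inhibitor of the mitotic checkpoint kinase TTK and of CLK2, a kinase that phosphorylates SR splicing factors. Cells of the 6 groups received DMSO vehicle for 6 h, DMSO for 24 h, CC-671 at 3 µM for 6 or 24 h, or CC-671 at 10 µM for 6 or 24 h. Each vehicle group had 2 libraries and each treated group had 3, 16 in all, which the labels call biological replicates.

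The hnRNPs coat nascent transcripts and, depending on where they bind, silence or enhance the use of exons. They act against or together with SR proteins, whose activity depends on phosphorylation by CLK and SRPK kinases. Many of these regulators also control their own messages and those of their relatives, through alternative exons that lead to decay of the transcript or through retained introns.

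Gene counts came to between 104609173 and 123789361 read pairs per library. Levels are given in CPM, that is, counts set relative to the library total after scaling by the trimmed mean of M values (TMM), and changes as log2 fold changes from edgeR's quasi-likelihood test. A gene was called higher or lower at an adjusted p under 0.05, adjusted over all 22007 genes. Each p-value reflects only how far libraries vary within groups, with the estimate of that spread shared by all 6 groups. The share of pairs outside annotated exons, among those at genes, outside exons or ambiguous, was 4.38 to 4.76% in vehicle and 5.67 to 7% in treated libraries at 6 h. At 24 h it was 4.26 to 4.59% in vehicle and 5.64 to 6.1% in treated libraries. Its part in the results below was not tested. Of the markers of the line, 5 of 5 epithelial genes were detected, with KRT8 at 536 to 700 CPM. Their summed level was 1800 to 1820 CPM in vehicle and 1790 to 1920 CPM in treated libraries at 6 h, against 1590 to 1640 and 1860 to 1920 CPM at 24 h. The sum of the 3 mesenchymal genes VIM, CDH2 and FN1 was 1610 to 1850 CPM in vehicle and 1520 to 1920 CPM in treated libraries at 6 h, against 2240 to 2280 and 1760 to 1930 CPM at 24 h. The hormone receptor genes ESR1 and PGR did not exceed 0.0477 CPM, whereas the receptor sum, nearly all ERBB2, was 178 to 189 CPM in vehicle and 84.7 to 95.3 CPM in treated libraries at 6 h, against 189 to 192 and 108 to 121 CPM at 24 h. Of 4 leukocyte markers, CD3E and CD68 did not exceed 0.0259 CPM, and of 5 fibroblast markers DCN and THY1 did not exceed 0.034 CPM. The summed leukocyte level was 10 to 10.2 CPM in vehicle and 10.7 to 11.6 CPM in treated libraries at 6 h, against 12.4 to 13.2 and 5.68 to 7.01 CPM at 24 h, with most of it from PTPRC. The summed fibroblast level was 55.6 to 60.7 CPM in vehicle and 44 to 48.7 CPM in treated libraries at 6 h, against 75.7 to 76.5 and 33.8 to 44.1 CPM at 24 h, with most of it from PDGFRB. The endothelial gene CDH5 was at 9.21 to 10.4 CPM in vehicle and 9.24 to 11.1 CPM in treated libraries at 6 h, against 16.5 to 16.9 and 6.32 to 8.44 CPM at 24 h. The part of these genes in the results was not tested.

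In vehicle at 6 h the 36 regulators spanned a 133-fold range of level per kilobase of exon. HNRNPAB led with 236 CPM per kb, followed by HNRNPK with 224 and HNRNPA2B1 with 193, and the median was 54.5 CPM per kb. The length is that of all annotated exons of a gene, merged over its transcripts, so that range and order depend on the annotation. HNRNPAB had 505 CPM over 2.14 kb, and HNRNPA2B1 had 1790 CPM over 9.27 kb. PTBP2, the PTB paralogue known from neurons, was the lowest at 1.77 CPM per kb, whereas its paralogue PTBP1 was at 126 CPM per kb. RBM5 and HNRNPUL2 stood next to PTBP2 at 8.65 and 8.73 CPM per kb. The regulators held 1.43 to 1.44% of all gene counts in vehicle at 6 h and 1.51 to 1.56% in the treated libraries of that time. At 24 h they held 1.44 to 1.45% in vehicle and 1.34 to 1.4% in treated libraries, so that the treated libraries lay above vehicle at 6 h and below it at 24 h without overlap at either time. In bulk RNA, fewer cells with a transcript and less transcript per cell cannot be told apart.

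**Figure D1:**
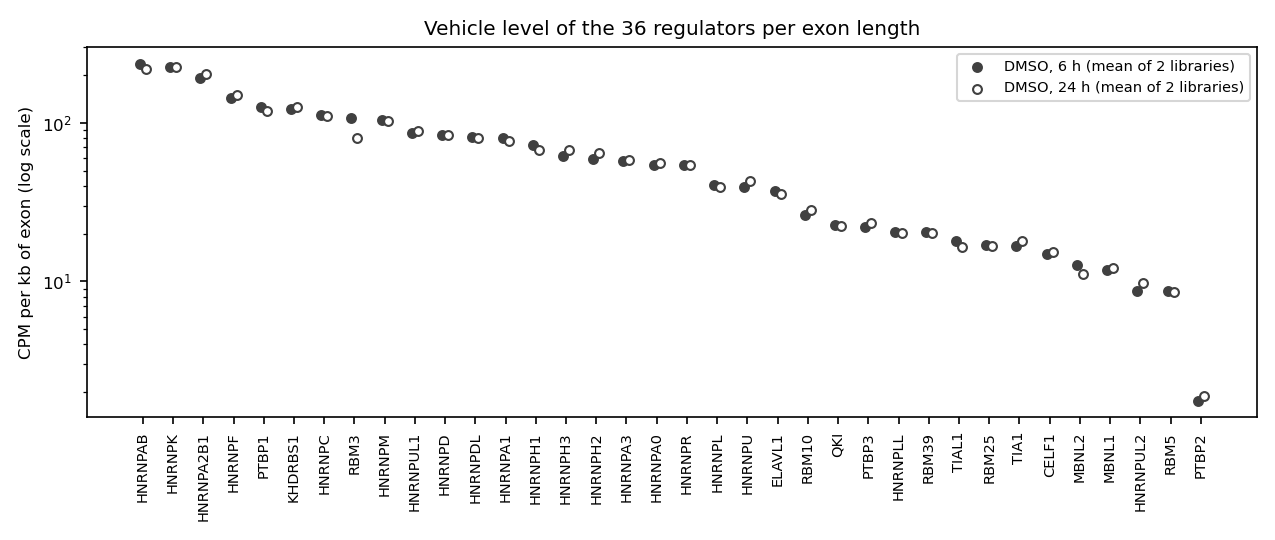
Mean level of each regulator in vehicle, in CPM per kilobase of exon on a log axis, ordered by the 6 h level; filled points are the mean of 2 libraries at 6 h and open points the mean of 2 libraries at 24 h. HNRNPAB, HNRNPK and HNRNPA2B1 stand at the top and PTBP2 lies lowest at 1.77 CPM per kb. Exon length is that of all annotated exons of a gene, merged over its transcripts.

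Under CC-671 and with TMM scaling, nearly all of these regulators were called at 6 h, in both directions, and most were called lower at 24 h. At 6 h, 3 µM raised 15 of the 36 and lowered 17, where 31.6% of all tested genes were higher and 31.6% lower. At 10 µM, 18 were higher and 17 lower, against 34% and 33.6% of all genes. The median log2 change of the regulators was 0.01 at 3 µM and 0.02 at 10 µM, beside 0.02 and 0.01 for all genes, since rises and falls were near balance. At 24 h, 4 were higher (2 without either vehicle library of 24 h) and 24 lower at 3 µM, against 29.7% and 30.9% of all genes, and 4 were higher and 24 lower at 10 µM, against 31.3% and 32.3%. Their median log2 change at 24 h was -0.14 at 3 µM and -0.20 at 10 µM, beside 0.00 and 0.01 for all genes. Taken without sign, the median change at 6 h was 0.37 and 0.46 for 3 and 10 µM, beside 0.34 and 0.39 for all genes. At 24 h it was 0.18 and 0.22, beside 0.31 and 0.34. The regulators also had the lower median between the vehicle groups of 24 and 6 h, without compound, at 0.05 beside 0.14. The shares and medians of all genes include genes of low count, and neither was computed among genes of similar level. Without a scaling factor the median of all genes shifted by 0.101 and 0.110 at 24 h, the calls became 11 higher and 16 lower at 3 µM and 11 higher and 20 lower at 10 µM, and the share of higher calls over all genes moved from 48.9 to 62.9% and from 49.2 to 62.3%. The calls lost were those of HNRNPUL1, HNRNPH2, HNRNPH3 and RBM25 at both doses and of HNRNPA0, HNRNPC, HNRNPK and MBNL1 at 3 µM. The calls gained were those of HNRNPH1, PTBP1, MBNL2, CELF1, TIAL1 and RBM10 at both doses, of HNRNPF at 3 µM and of HNRNPA3 at 10 µM. Both doses of a time are set against the same vehicle libraries, so that their counts are not independent of each other.

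**Figure D2:**
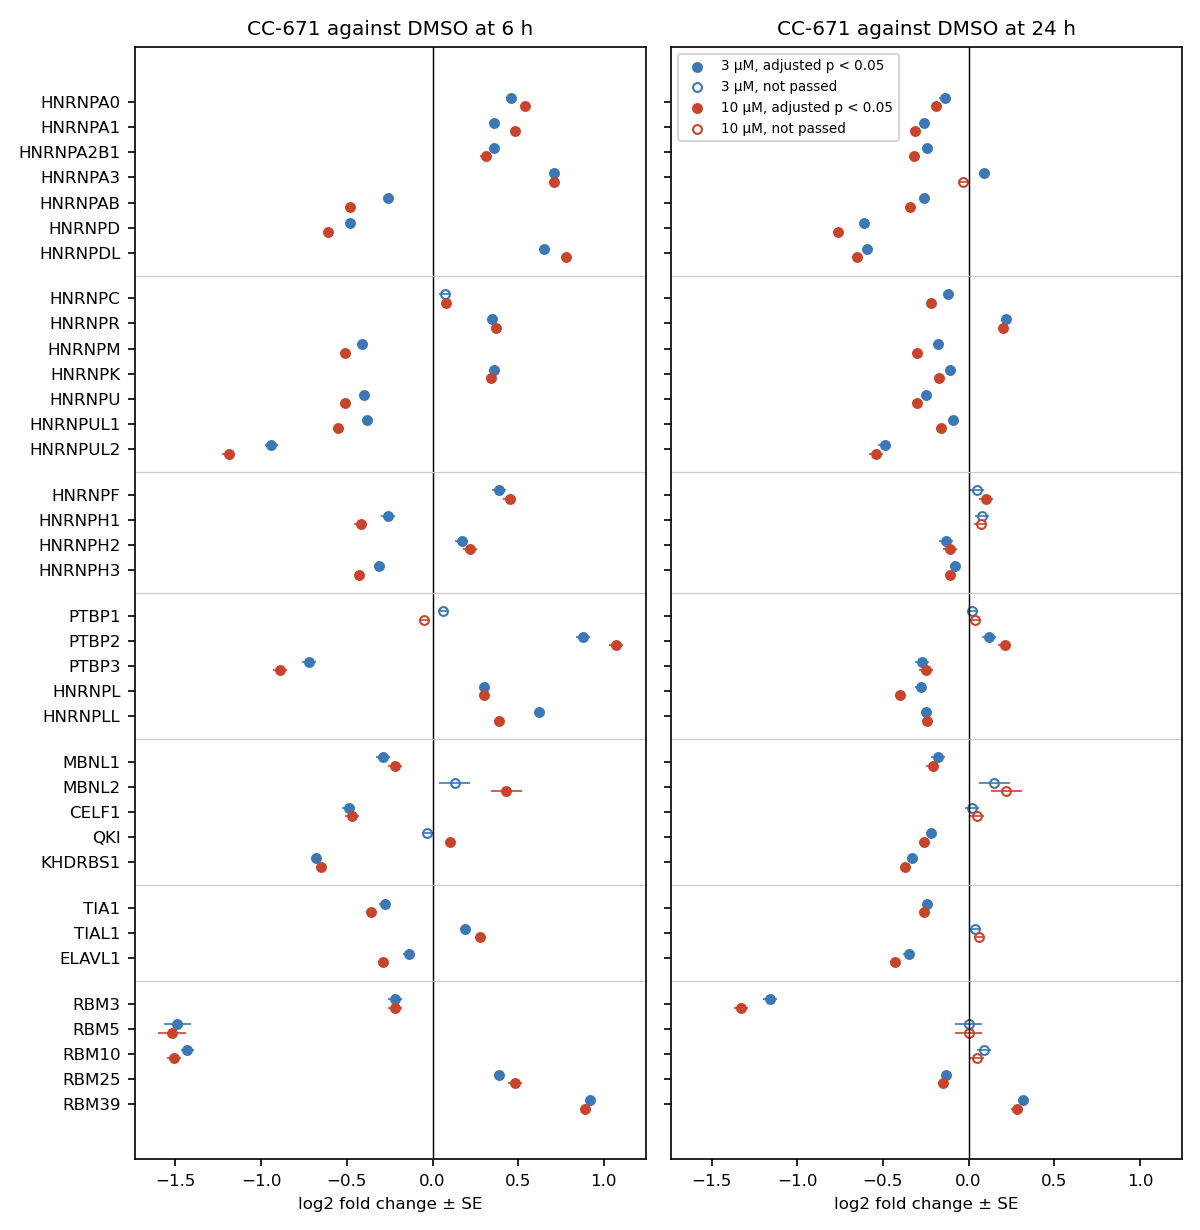
Log2 fold change against DMSO of the 36 regulators at 6 h (left) and 24 h (right), grouped by family, with bars of 1 standard error; blue is 3 µM, red is 10 µM, and open points did not pass an adjusted p of 0.05. At 6 h the points spread from -1.52 to 1.07, and at 24 h 24 regulators at each dose were called lower.

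The 7 A/B and D type hnRNPs, which pack pre-mRNA and mostly repress nearby exons, split at 6 h. HNRNPA0, HNRNPA1, HNRNPA2B1, HNRNPA3 and HNRNPDL were higher at both doses, and HNRNPAB and HNRNPD were lower. At 24 h, 6 of the 7 were lower at each dose, against 30.9% of all genes at 3 µM and 32.3% at 10 µM. HNRNPDL, a relative of HNRNPD, was at 447 and 445 CPM in vehicle at 6 h, 694, 699 and 714 CPM at 3 µM, and 744, 808 and 751 CPM at 10 µM. Every treated library lay above both vehicle libraries. Its log2 change was 0.65 ± 0.03 (SE, adjusted p = 3.5e-16) at 3 µM and 0.78 ± 0.03 (adjusted p = 4.8e-18) at 10 µM. At 24 h the order was turned round, with 445 and 441 CPM in vehicle, 291, 299 and 294 CPM at 3 µM and 283, 282 and 282 CPM at 10 µM. The log2 change was then -0.59 ± 0.03 (adjusted p = 4.8e-15) and -0.65 ± 0.03 (adjusted p = 3.6e-16), again with no overlap of the groups.

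HNRNPD, also called AUF1 and known for binding AU-rich elements, was lower than vehicle at both times. It was at 577 and 591 CPM in vehicle at 6 h, 428, 393 and 431 CPM at 3 µM and 386, 373 and 387 CPM at 10 µM. By 24 h HNRNPD stood at 592 and 584 CPM in vehicle, 377, 390 and 387 CPM at 3 µM and 348, 343 and 348 CPM at 10 µM. The treated libraries were lower than vehicle without overlap in all 4 comparisons. Its log2 changes were -0.48 ± 0.03 (adjusted p = 5.7e-13) and -0.61 ± 0.03 (adjusted p = 2.4e-15) at 6 h, and -0.61 ± 0.03 (adjusted p = 8e-15) and -0.76 ± 0.03 (adjusted p = 4.6e-17) at 24 h, for 3 and 10 µM in turn. HNRNPD and HNRNPDL thus differed in direction at 6 h and shared it at 24 h.

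HNRNPA3 was at 333 and 362 CPM in vehicle at 6 h, 566, 553 and 591 CPM at 3 µM and 562, 566 and 572 CPM at 10 µM. All 6 treated libraries stood above both vehicle libraries, with a log2 change of 0.71 ± 0.03 at each dose (adjusted p = 2.4e-16 and 1.9e-16). At 24 h HNRNPA3 was at 350 and 351 CPM in vehicle, 364, 379 and 374 CPM at 3 µM and 346, 341 and 340 CPM at 10 µM. The small rise at 3 µM, 0.09 ± 0.03 (adjusted p = 0.031), lost its call without either vehicle library of 24 h (adjusted p = 0.14 and 0.12) and without 3 µM library 2 or 3 (adjusted p = 0.11 and 0.069). DESeq2 (adjusted p = 0.062), RLE size factors (adjusted p = 0.057) and a replicate block (adjusted p = 0.059) did not call it either. The value at 10 µM, -0.03, did not pass, and was 0.08 (adjusted p = 0.032) without a scaling factor. Among the other A/B types the 6 h changes at 3 and 10 µM were 0.46 and 0.54 for HNRNPA0, 0.36 and 0.48 for HNRNPA1, and 0.36 and 0.31 for HNRNPA2B1. These 3 genes were lower at 24 h, with HNRNPA0 at -0.14 and -0.19 (-0.04 at 3 µM without a scaling factor, adjusted p = 0.27), HNRNPA1 at -0.26 and -0.31 and HNRNPA2B1 at -0.24 and -0.32. HNRNPAB fell by 0.26 and 0.48 at 6 h and by 0.26 and 0.34 at 24 h on the log2 scale. In GENCODE annotation 14 of the 36 regulators have pseudogenes named after them, 123 in all, of which 74 belong to HNRNPA1, 16 to HNRNPA3 and 9 to HNRNPC. The deposited counts list ambiguous pairs and pairs not uniquely aligned apart from the genes. How many pairs of these genes were set aside there is not known, and their values are uncertain to that extent.

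The C, R, M, K and U type hnRNPs include scaffold and RNA-packaging proteins. At 6 h, 3 µM raised 2 of the 7 and lowered 4, where 31.6% of all genes were higher and 31.6% lower. At that time 10 µM raised 3 and lowered 4, against 34% and 33.6% of all genes. At 24 h each dose raised 1 and lowered 6, against 29.7% and 30.9% at 3 µM and 31.3% and 32.3% at 10 µM. HNRNPUL2, a relative of the scaffold protein HNRNPU with roles at DNA breaks, fell most. Its levels were 46.5 and 48.1 CPM in vehicle at 6 h, 25.6, 23.2 and 25 CPM at 3 µM and 20.5, 20.6 and 21.3 CPM at 10 µM. All 6 treated libraries lay far below vehicle, at 0.52 and 0.44 of it on average, with log2 changes of -0.94 ± 0.04 (adjusted p = 5.4e-18) and -1.19 ± 0.04 (adjusted p = 3.1e-20). At 24 h the levels were 52.5 and 53.6 CPM in vehicle, 37.4, 38.1 and 37.4 CPM at 3 µM and 36.6, 36.3 and 36.8 CPM at 10 µM. HNRNPUL2 was still below vehicle in every treated library, by -0.49 ± 0.04 (adjusted p = 7.4e-12) and -0.54 ± 0.04 (adjusted p = 9.5e-13). It overlaps the readthrough gene HNRNPUL2-BSCL2 on the same strand, and how many shared pairs were set aside as ambiguous is not known.

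HNRNPR, a splicing and mRNA transport factor, was the 1 member of these types that was higher at both times. It was at 469 and 473 CPM in vehicle at 6 h, 584, 602 and 612 CPM at 3 µM and 598, 634 and 598 CPM at 10 µM. The 24 h levels of HNRNPR were 474 and 466 CPM in vehicle, 537, 556 and 552 CPM at 3 µM and 540, 530 and 549 CPM at 10 µM. No treated library overlapped the vehicle libraries of its time. The log2 changes were 0.35 ± 0.03 (adjusted p = 2.2e-10) and 0.37 ± 0.03 (adjusted p = 4.2e-11) at 6 h, and 0.22 ± 0.03 (adjusted p = 9.9e-07) and 0.20 ± 0.03 (adjusted p = 4.5e-06) at 24 h. HNRNPK, which binds C-rich RNA, rose by 0.36 and 0.34 at 6 h and had values of -0.11 and -0.17 at 24 h, of which the first was not called without vehicle library 1 of 24 h (adjusted p = 0.065) and was -0.01 without a scaling factor. HNRNPM, HNRNPU and HNRNPUL1 fell at 6 h, by 0.41 and 0.51, 0.40 and 0.51, and 0.38 and 0.55, and remained lower at 24 h by 0.09 to 0.30. The call of HNRNPUL1 at 3 µM and 24 h was lost without vehicle library 1 of that time (adjusted p = 0.08), and without a scaling factor its 24 h values were 0.01 and -0.04 (adjusted p = 0.67 and 0.17). HNRNPC, the U-tract binder that shields cryptic exons, stayed within 0.08 of vehicle at 6 h. Its call at 10 µM and 6 h (adjusted p = 0.034) was lost without either vehicle library (adjusted p = 0.053 and 0.31) or 10 µM library 2 (adjusted p = 0.24), and with a replicate block (adjusted p = 0.061), no count filter (adjusted p = 0.16) or only the groups compared (adjusted p = 0.11). At 3 µM and 6 h its value was 0.07 and did not pass, while DESeq2 called it higher (0.08, adjusted p = 0.039). At 24 h it fell by 0.12 and 0.22, the first of which was -0.02 without a scaling factor.

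The H/F family binds G-rich runs. HNRNPF was at 470 and 468 CPM in vehicle at 6 h, 585, 635 and 626 CPM at 3 µM and 631, 678 and 619 CPM at 10 µM. All treated libraries were above vehicle, with log2 changes of 0.39 ± 0.04 (adjusted p = 2.6e-10) and 0.45 ± 0.04 (adjusted p = 9.6e-12). By 24 h HNRNPF stood at 490 and 482 CPM in vehicle, 496, 513 and 503 CPM at 3 µM and 520, 515 and 528 CPM at 10 µM. The 24 h change was 0.05 ± 0.04 at 3 µM, which did not pass, and 0.10 ± 0.04 (adjusted p = 0.016) at 10 µM, a call lost without vehicle library 2 of 24 h (adjusted p = 0.12) or 10 µM library 3 (adjusted p = 0.056). Its close relatives did not move as one at 6 h. HNRNPH1 and HNRNPH3 fell, by 0.26 and 0.42 and by 0.31 and 0.43, whereas HNRNPH2 rose by 0.17 and 0.22. At 24 h HNRNPH2 and HNRNPH3 had values between -0.08 and -0.13, and HNRNPH1 did not pass at either dose, with 0.08 and 0.07. A stricter filter on low counts called HNRNPH1 higher at 24 h (0.11 at each dose, adjusted p = 0.016 and 0.017), as did a fit of only the groups compared (adjusted p = 0.00025 and 7.5e-05). Without a scaling factor HNRNPH2 was at -0.03 and -0.00 (adjusted p = 0.39 and 0.93) and HNRNPH3 at 0.02 and -0.00 (adjusted p = 0.65 and 1). The call of HNRNPH3 at 3 µM and 24 h was lost without either vehicle library (adjusted p = 0.085 and 0.1) and without 3 µM library 1 or 3 (adjusted p = 0.08 and 0.058). The call of HNRNPH2 at 10 µM was lost without vehicle library 1 (adjusted p = 0.084). HNRNPH2 overlaps the readthrough gene RPL36A-HNRNPH2.

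The 3 PTB paralogues, which repress exons flanked by pyrimidine-rich tracts, took 3 courses. PTBP1 did not pass in any comparison with vehicle, with values of 0.06, -0.05, 0.02 and 0.04 for 3 and 10 µM at 6 h and then at 24 h. DESeq2 called it higher at 3 µM and 6 h (0.07, adjusted p = 0.0076). RLE size factors (adjusted p = 0.037), no scaling factor (adjusted p = 0.0086) and a stricter filter (adjusted p = 0.0039) did so too. At 10 µM and 24 h a stricter filter (0.08, adjusted p = 0.012) and a fit of only the groups compared (0.05, adjusted p = 0.014) called it higher. PTBP2 was at 23 and 22.8 CPM in vehicle at 6 h, 43.8, 40.7 and 41.5 CPM at 3 µM and 49.1, 47.1 and 48.2 CPM at 10 µM. PTBP2 was thus higher in every treated library, by 0.88 ± 0.04 (adjusted p = 6.3e-17) and 1.07 ± 0.04 (adjusted p = 4.7e-19), a 1.84-fold and a 2.11-fold rise. At 24 h PTBP2 was at 24.6 and 24.4 CPM in vehicle, 27.6, 26.4 and 25.9 CPM at 3 µM and 27.8, 28.7 and 28.9 CPM at 10 µM. The rise had shrunk to 0.12 ± 0.04 (adjusted p = 0.012) and 0.21 ± 0.04 (adjusted p = 4e-05). The call at 3 µM was lost without vehicle library 1 or 2 of 24 h (adjusted p = 0.059 and 0.08) or 3 µM library 1 (adjusted p = 0.065).

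PTBP3 moved the other way. It was at 175 and 188 CPM in vehicle at 6 h, 112, 105 and 113 CPM at 3 µM and 97.7, 97.4 and 99 CPM at 10 µM. The 24 h levels of PTBP3 were 196 and 191 CPM in vehicle, 155, 163 and 163 CPM at 3 µM and 163, 164 and 162 CPM at 10 µM. The treated libraries were below vehicle at both times, with the wider gap at 6 h. The log2 changes were -0.72 ± 0.04 (adjusted p = 2.7e-16) and -0.89 ± 0.04 (adjusted p = 1.7e-18) at 6 h, and -0.27 ± 0.04 (adjusted p = 1.5e-07) and -0.25 ± 0.04 (adjusted p = 5.1e-07) at 24 h. HNRNPL, a CA-repeat binder, and HNRNPLL, its relative known from lymphocytes, rose at 6 h and fell at 24 h. HNRNPL had 6 h changes of 0.30 and 0.30 and 24 h changes of -0.28 and -0.40. HNRNPLL was at 122 and 122 CPM in vehicle at 6 h, 184, 183 and 194 CPM at 3 µM and 156, 162 and 163 CPM at 10 µM, so that the lower dose gave the higher level. Its 24 h changes were -0.25 and -0.24.

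Of MBNL1, MBNL2, CELF1, QKI and KHDRBS1, regulators of tissue-specific exons, 3 fell at 6 h at both doses. Of all genes, 31.6% were lower at 3 µM and 33.6% at 10 µM. KHDRBS1 (Sam68), a STAR family protein, fell by 0.68 and 0.65 at 6 h and by 0.33 and 0.37 at 24 h. CELF1, which binds GU-rich RNA, fell by 0.49 and 0.47 at 6 h, and its 24 h values of 0.02 and 0.05 did not pass. A fit of only the groups compared called CELF1 higher at 10 µM and 24 h (0.06, adjusted p = 0.0044). MBNL1 fell by 0.29 and 0.22 at 6 h and by 0.18 and 0.21 at 24 h, and its 3 µM value at 24 h was -0.08 (adjusted p = 0.074) without a scaling factor. MBNL2, its paralogue, was at 61.7 and 63.3 CPM in vehicle at 6 h, 67.2, 66.8 and 71.3 CPM at 3 µM and 98.3, 80.1 and 74.6 CPM at 10 µM. The 10 µM libraries were the most scattered of its groups, and the change was called at 10 µM (0.43 ± 0.09, adjusted p = 0.00086) but not at 3 µM (0.13 ± 0.09, adjusted p = 0.22), where a fit of only the groups compared called it (adjusted p = 0.013). The 24 h values of MBNL2, 0.15 and 0.22, did not pass (adjusted p = 0.16 and 0.052). DESeq2 (adjusted p = 0.041), a stricter filter (adjusted p = 0.019) and a replicate block (adjusted p = 0.049) called it higher at 10 µM and 24 h. A fit of only the groups compared called it at both doses (adjusted p = 1e-05 and 3e-11). QKI, another STAR protein, rose by 0.10 at 10 µM and 6 h, a call lost without vehicle library 1 (adjusted p = 0.23) or 10 µM library 1 (adjusted p = 0.081), and fell by 0.22 and 0.26 at 24 h.

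The binders of U-rich RNA also split. TIA1 fell by 0.28 and 0.36 at 6 h and by 0.24 and 0.26 at 24 h, whereas its paralogue TIAL1 rose by 0.19 and 0.28 at 6 h. The 24 h values of TIAL1, 0.04 and 0.06, did not pass, whereas a stricter filter on low counts called it higher (0.07 and 0.09, adjusted p = 0.017 and 0.003). ELAVL1 (HuR), which stabilizes AU-rich messages, fell by 0.14 and 0.29 at 6 h and by 0.35 and 0.43 at 24 h.

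The RBM proteins held the deepest falls of all 36. RBM5 and RBM10 are relatives that bind near splice sites and regulate exons of cell death and NUMB transcripts, RBM3 is a cold-inducible RNA-binding protein, and RBM25 and RBM39 are SR-like proteins of the nucleus. RBM5, RBM10 and RBM3 are shown by sequence because they mark the extremes at 6 and 24 h. The lines give the 250 bases before the RefSeq start of each gene on GRCh38.p14, 5′ to 3′ on the plus strand of chr3:50088669-50088918 for RBM5, chrX:47144971-47145220 for RBM10 and chrX:48574234-48574483 for RBM3. Capitals mark matches to a CCAAT box (CCAAT) or a GC box (GGGCGG) on either strand.
RBM5: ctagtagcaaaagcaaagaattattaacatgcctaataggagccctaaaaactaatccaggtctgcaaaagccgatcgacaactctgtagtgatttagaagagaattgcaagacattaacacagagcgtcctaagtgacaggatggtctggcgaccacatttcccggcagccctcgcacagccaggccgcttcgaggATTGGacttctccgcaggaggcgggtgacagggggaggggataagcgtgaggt
RBM10: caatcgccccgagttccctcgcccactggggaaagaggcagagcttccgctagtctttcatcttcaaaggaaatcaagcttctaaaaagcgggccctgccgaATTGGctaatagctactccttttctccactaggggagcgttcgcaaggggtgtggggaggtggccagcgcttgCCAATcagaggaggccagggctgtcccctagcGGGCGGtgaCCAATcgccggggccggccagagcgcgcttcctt
RBM3: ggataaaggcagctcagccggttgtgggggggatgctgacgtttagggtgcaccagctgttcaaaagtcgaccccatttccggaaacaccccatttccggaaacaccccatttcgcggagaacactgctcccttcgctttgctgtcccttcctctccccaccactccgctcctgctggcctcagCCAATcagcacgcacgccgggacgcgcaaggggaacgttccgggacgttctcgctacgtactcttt
A CCAAT match stood once before RBM5, at 3 places before RBM10 and once before RBM3, and the GC box was found only before RBM10. RefSeq promoter windows were found for 32 of the 36 regulators, 52 windows in all, because some genes have several starts. CCAAT stood in 50% of these windows and in 32% of all 35116 promoter windows, and GGGCGG in 63.5% and 42.6%. The median GC content was 65% in the regulators' windows and 58% in all, and each match describes letters in a window only.

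RBM5 was at 88.1 and 91.8 CPM in vehicle at 6 h, 33.1, 30 and 32.6 CPM at 3 µM and 31.3, 27.4 and 35.6 CPM at 10 µM. RBM10 was at 105 and 98 CPM in vehicle at 6 h, 37.1, 37.3 and 38.5 CPM at 3 µM and 38.1, 32.8 and 35.8 CPM at 10 µM. Both genes stood far below vehicle in all 6 treated libraries, with little between the doses. RBM5 had log2 changes of -1.49 ± 0.08 (adjusted p = 1.2e-09) and -1.52 ± 0.08 (adjusted p = 8.1e-10), that is, 0.355 and 0.35 of vehicle. RBM10 had log2 changes of -1.43 ± 0.04 (adjusted p = 1.4e-20) and -1.51 ± 0.04 (adjusted p = 2.5e-21), or 0.37 and 0.351 of vehicle. By 24 h neither gene passed the test against vehicle. RBM5 was at 86.1 and 93 CPM in vehicle at 24 h, 91.8, 88.1 and 88.9 CPM at 3 µM and 89.8, 91.1 and 88.5 CPM at 10 µM, and its log2 change was 0.00 ± 0.08 at each dose with overlapping groups. RBM10 was at 110 and 111 CPM in vehicle, 119, 115 and 118 CPM at 3 µM and 112, 115 and 116 CPM at 10 µM. The treated RBM10 libraries lay just above vehicle, with log2 changes of 0.09 ± 0.04 (adjusted p = 0.073) and 0.05 ± 0.04 (adjusted p = 0.34). A stricter filter on low counts called the 3 µM value (0.13, adjusted p = 0.016). A fit of only the groups compared called both doses (0.10 and 0.06, adjusted p = 3e-04 and 0.0079). RBM5 overlaps RBM6 on the same strand and RBM5-AS1 on the other, and RBM6 itself changed by -0.23 and -0.17 at 6 h and by 0.41 and 0.48 at 24 h.

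**Figure D3:**
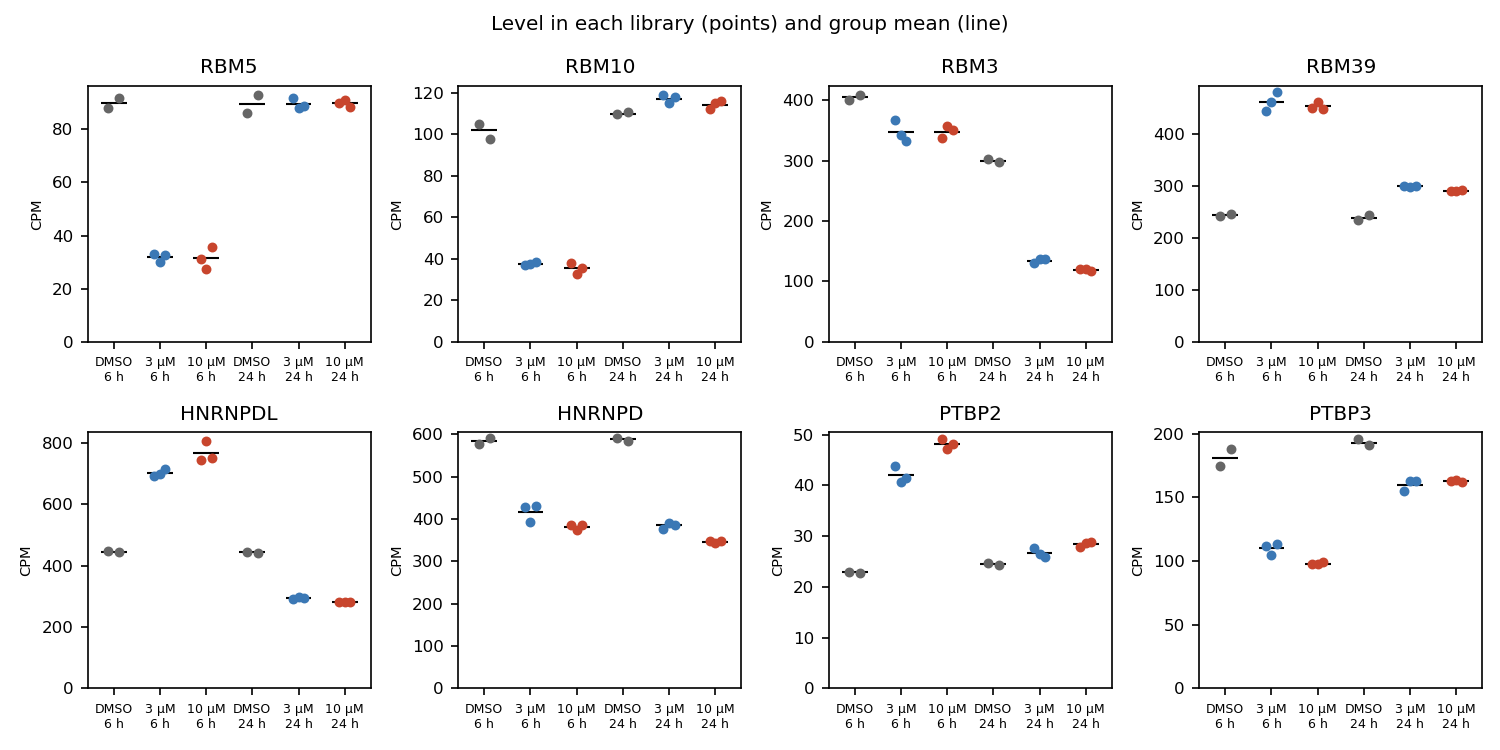
Level in CPM of 8 regulators in each library (points, axes from 0) with the group mean (line); grey is DMSO, blue 3 µM and red 10 µM CC-671, in order of time and dose. RBM5 and RBM10 are low only in the 6 treated libraries of 6 h, and RBM3 is lowest in the 6 treated libraries of 24 h, at 117 to 137 CPM.

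RBM3 had the opposite timing. It was at 400 and 409 CPM in vehicle at 6 h, 368, 342 and 333 CPM at 3 µM and 337, 358 and 350 CPM at 10 µM. By 24 h RBM3 stood at 302 and 298 CPM in vehicle, 130, 137 and 137 CPM at 3 µM and 120, 121 and 117 CPM at 10 µM. RBM3 was slightly lower in all treated libraries at 6 h and far lower in all of them at 24 h, without overlap at either time. The 6 h log2 change was -0.22 ± 0.04 at each dose (adjusted p = 6.9e-06 and 6.1e-06). The 24 h change was -1.16 ± 0.04 (adjusted p = 5.7e-20) at 3 µM and -1.33 ± 0.04 (adjusted p = 1.9e-21) at 10 µM, or 0.448 and 0.397 of vehicle. Vehicle cells themselves had less RBM3 at 24 h than at 6 h, by -0.43 ± 0.04 (adjusted p = 1.2e-08). RBM39, a partner of U2AF and the target of aryl sulfonamide degraders, rose. It was at 243 and 247 CPM in vehicle at 6 h, 446, 463 and 481 CPM at 3 µM and 450, 462 and 449 CPM at 10 µM. At 24 h RBM39 was at 235 and 244 CPM in vehicle, 301, 298 and 300 CPM at 3 µM and 291, 290 and 292 CPM at 10 µM. The treated libraries were above vehicle at both times, with the larger gap at 6 h. The changes were 0.92 ± 0.03 (adjusted p = 2e-19) and 0.89 ± 0.03 (adjusted p = 2.2e-19) at 6 h and 0.32 ± 0.03 (adjusted p = 9.4e-10) and 0.28 ± 0.03 (adjusted p = 1e-08) at 24 h. RBM25 rose by 0.39 and 0.48 at 6 h and had 24 h values of -0.13 and -0.15, neither of which was called without vehicle library 2 of 24 h (adjusted p = 0.13 and 0.052) or without a scaling factor (-0.03 and -0.04, adjusted p = 0.48 and 0.33).

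The 6 h and 24 h groups share no library, and the 2 times can be read against each other. At 3 µM, 13 regulators were lower at both times, 9 were higher at 6 h and lower at 24 h, 4 were higher at both times, and 4 were lower at 6 h and not called at 24 h. Of all tested genes, 18.4%, 4.68%, 17.2% and 9.21% had these patterns in turn. At 10 µM the patterns held 13, 11, 4 and 4 regulators, against 19.4%, 5.43%, 18.8% and 9.12% of all genes. At each dose the 4 that were lower at 6 h and not called at 24 h were RBM5, RBM10, HNRNPH1 and CELF1. Some of the alternative fits called RBM10, HNRNPH1 and CELF1 higher at 24 h. The 9 that turned from higher to lower at 3 µM were HNRNPA0, HNRNPA1, HNRNPA2B1, HNRNPDL, HNRNPK, HNRNPH2, HNRNPL, HNRNPLL and RBM25, and HNRNPC and QKI joined them at 10 µM. Without a scaling factor the lower calls at 24 h were lost for HNRNPA0 and HNRNPK at 3 µM, and for HNRNPH2 and RBM25 at both doses. The 6 h calls of HNRNPC (0.08) and QKI (0.10) at 10 µM were lost without 10 µM library 2 and 10 µM library 1 in turn. Whether the effect at 24 h differed from that at 6 h was tested directly. At 3 µM it was positive for 11 regulators and negative for 20, against 25.6% and 23.7% of all genes. At 10 µM it was positive for 12 and negative for 20, against 27.6% and 26.4%. RBM10 and RBM5 had the highest differences, 1.52 ± 0.06 (adjusted p = 8.2e-17) and 1.50 ± 0.11 (adjusted p = 1.1e-07) at 3 µM, and 1.56 ± 0.06 (adjusted p = 1.8e-17) and 1.52 ± 0.11 (adjusted p = 6.3e-08) at 10 µM. HNRNPDL and RBM3 had the lowest, -1.24 ± 0.05 (adjusted p = 1.5e-17) and -0.94 ± 0.05 (adjusted p = 2.9e-14) at 3 µM, and -1.43 ± 0.05 (adjusted p = 3.6e-19) and -1.12 ± 0.05 (adjusted p = 4.4e-16) at 10 µM.

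**Figure D4:**
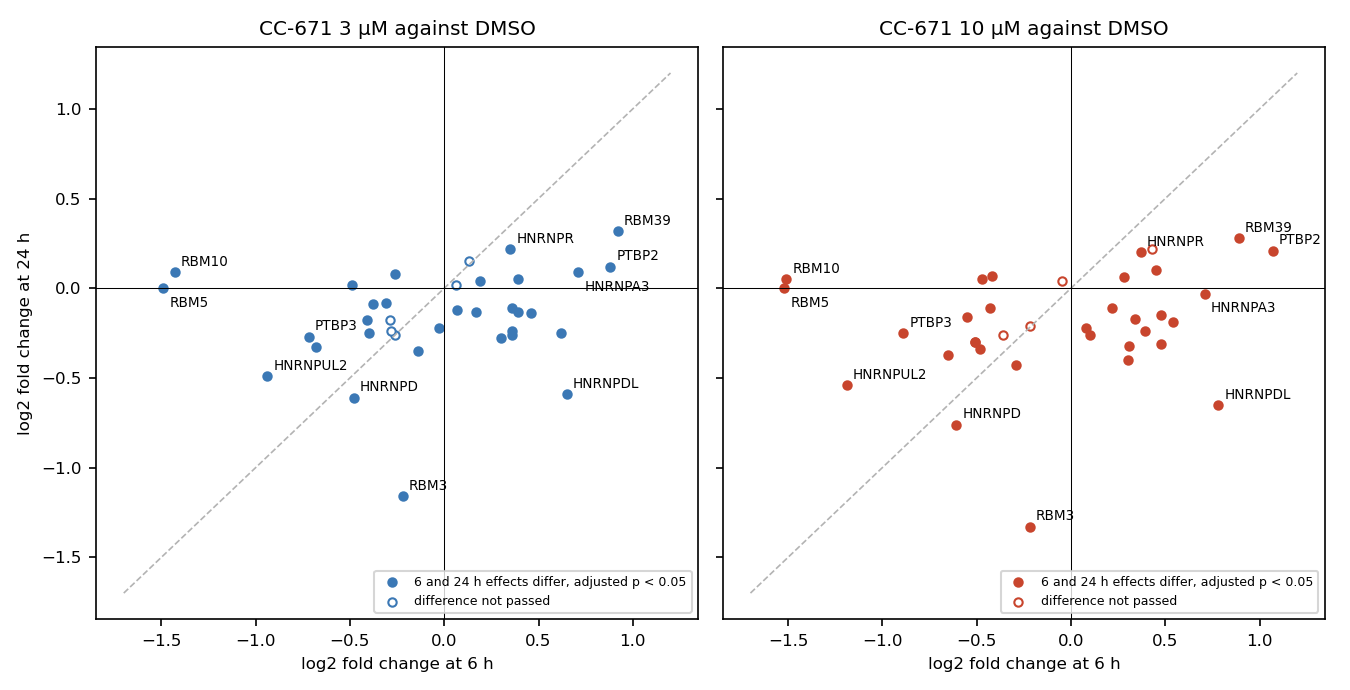
Log2 fold change at 6 h (x axis) against that at 24 h (y axis) for each regulator at 3 µM (left) and 10 µM (right), with the diagonal of equal effects dashed; filled points are regulators whose 6 and 24 h effects differed at an adjusted p under 0.05. RBM5 and RBM10 lie far left near 0 on the y axis, HNRNPDL lies lower right and RBM3 lies lowest, at -1.16 and -1.33.

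The doses were also compared directly. At 6 h, 8 regulators were higher at 10 than at 3 µM and 12 lower, where 12% and 12.9% of all genes were. MBNL2 had the largest rise, 0.30 ± 0.08 (adjusted p = 0.015), and PTBP2 the next, 0.20 ± 0.03 (adjusted p = 9.8e-05). Without 3 µM library 2 the number of higher calls dropped to 5, and MBNL2 was no longer called (adjusted p = 0.053). HNRNPUL2 fell by 0.24 ± 0.04 (adjusted p = 1.9e-05) and HNRNPLL by 0.22 ± 0.03 (adjusted p = 2.2e-06). At 24 h, edgeR called 0 regulators higher and 6 lower, against 2.49% and 3.85% of all genes. DESeq2 also called 0 higher, and 1 was higher at an unadjusted p under 0.05. RBM3 fell by a further 0.17 ± 0.03 (adjusted p = 0.0016) and HNRNPD by 0.15 ± 0.03 (adjusted p = 0.0026) between 3 and 10 µM. RBM5 did not pass at either time, with differences of -0.02 ± 0.07 and 0.00 ± 0.07. RBM10 did not pass with all libraries, at -0.08 ± 0.04 and -0.04 ± 0.04, but its 6 h difference was called without 10 µM library 1 (-0.13, adjusted p = 0.016).

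In vehicle alone the regulators moved little from 6 to 24 h. A total of 4 were higher and 3 lower, against 11% and 9.55% of all genes. The largest rises were HNRNPUL2 at 0.17 ± 0.04 (adjusted p = 0.0046) and HNRNPU at 0.14 ± 0.03 (adjusted p = 0.0026). RBM3 fell most, as given above, and TIAL1 fell by 0.13 ± 0.03 (adjusted p = 0.0051). With either vehicle library of 24 h left out, the number of higher calls dropped to 2 (without library 1) and 1 (without library 2). The call of HNRNPUL2 was lost without vehicle library 1 of 6 h or 2 of 24 h (adjusted p = 0.082 and 0.065), and that of TIAL1 without vehicle library 1 of 24 h (adjusted p = 0.088).

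A further list of 40 splicing regulators outside these 36, all tested, shows the surroundings. At 6 h, 12 were higher and 22 lower at 3 µM, that is, 30% and 55% of the list against 31.6% and 31.6% of all genes. At 10 µM and 6 h, 12 (30%) were higher and 24 (60%) lower, against 34% and 33.6%. At 24 h, 12 (30%) were higher and 19 (47.5%) lower at 3 µM, against 29.7% and 30.9%, and 9 (22.5%) and 20 (50%) at 10 µM, against 31.3% and 32.3%. At 6 h the largest rises were SRRM1, a splicing coactivator, at 0.74 ± 0.03 (adjusted p = 2.4e-18) and 0.90 ± 0.03 (adjusted p = 2.6e-20), and TARDBP (TDP-43), at 0.60 ± 0.03 at each dose (adjusted p = 3.3e-16 and 2.1e-16). The largest falls were ZRANB2, at -1.47 ± 0.11 (adjusted p = 3e-07) and -1.67 ± 0.11 (adjusted p = 7.8e-08), and SUGP1, a partner of SF3B1, at -1.21 ± 0.04 (adjusted p = 3.6e-19) and -1.37 ± 0.04 (adjusted p = 2.1e-20). At 24 h ESRP1, an epithelial splicing regulator, had the largest rise, 1.31 ± 0.28 (adjusted p = 0.00022) and 1.47 ± 0.28 (adjusted p = 3.9e-05), from a level of only 0.107 and 0.138 CPM in vehicle to 0.283 to 0.415 CPM in treated libraries. RBM6 followed with 0.41 ± 0.06 (adjusted p = 1.1e-05) and 0.48 ± 0.06 (adjusted p = 1.5e-06). MSI2 fell most, by 0.55 ± 0.04 (adjusted p = 8.9e-13) and 0.68 ± 0.04 (adjusted p = 6.2e-15). CIRBP, the cold-inducible relative of RBM3, fell by 0.51 ± 0.05 at each dose (adjusted p = 2.6e-07 and 2.2e-07), and unlike RBM3 it had its deeper values at 6 h, -1.07 and -0.97.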

How the data were processed

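Poly-A RNA of 16 CAL51 cultures was sequenced from strand-specific libraries, per the labels' protocols. The authors deposited raw counts of read pairs per gene symbol for each library, and the tools listed in the submitters' processing notes are STAR, HTSeq and edgeR, with the build hg19 (GRCh37). Not given in the sources used here are versions, strand setting, overlap mode, annotation release and duplicate handling. Pairs not assigned to a gene, 16.9 to 20.2% of all pairs, entered neither library sizes nor tests. They are those outside exons, ambiguous, of low alignment quality, not aligned or not uniquely aligned. No library duplicated another.

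Groups came from the labels, and all libraries were used. The low-count filter was filterByExpr (edgeR 4.0.16 in R 4.3.3) with a minimum count of 10 and a minimum total of 15. TMM factors ran from 0.963 to 1.05, and a model of 6 group means was fitted to the 16 libraries and tested by the robust quasi-likelihood F test. All 9 comparisons used two-sided p-values, adjusted by Benjamini-Hochberg across 22007 genes, with a threshold of 0.05. The SE is the absolute log2 change over the square root of F. The script was run on simulated data in which few genes changed, which cannot show how the scaling behaves where many genes change, as here. No difference of effect between 6 and 24 h was simulated.

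The 36 regulators, the list of 40 others and the markers were chosen with earlier results of these data known. One leukocyte marker is not reported here, and PECAM1 was not analysed here. Full statistics are given for called regulators among the 4 largest rises or falls in any comparison with vehicle and the 2 largest in the others. Of the list of 40, the 2 largest called rises and falls per comparison with vehicle are named. Other values are log2 changes for 3 and 10 µM in turn. Exon lengths, exon numbers, overlaps and pseudogenes are from GENCODE 29 on GRCh38 and promoters from RefSeq GRCh38.p14, whose builds differ from that of the counts. HNRNPA1, QKI, ELAVL1 and RBM39 are without a sequence here.

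Alternatives were DESeq2 1.42.0, RLE size factors, no scaling factor, no count filter, a stricter filter (at least 1 CPM in 5 libraries), fitting only the groups compared, a replicate block, and leaving out single libraries.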

Additional observations from a re-analysis of the deposited data

Results flagged for a closer look

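The effect of CC-671 differed between 24 h and 6 h, by the test of the difference itself in edgeR, for 31 of the 36 regulators at 3 µM and 32 at 10 µM. Of all tested genes, the difference was positive for 25.6% and negative for 23.7% at 3 µM. At 10 µM these shares were 27.6% and 26.4%. Values are the log2 fold change at 24 h minus that at 6 h, each against the vehicle of its time. The 2 doses share their vehicle libraries.

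At 3 µM the difference was positive for 11 regulators. The values were RBM10 at 1.52, RBM5 at 1.50, CELF1 at 0.51, PTBP3 at 0.45, HNRNPUL2 at 0.45 and KHDRBS1 at 0.35, and further HNRNPH1 at 0.33, HNRNPUL1 at 0.29, HNRNPM at 0.23, HNRNPH3 at 0.22 and HNRNPU at 0.15. A positive value means a higher change at 24 h than at 6 h. For 20 regulators it was negative. The values were HNRNPDL at -1.24, RBM3 at -0.94, HNRNPLL at -0.87, PTBP2 at -0.76, HNRNPA3 at -0.63, HNRNPA1 at -0.62 and HNRNPA2B1 at -0.61. Next came HNRNPA0 at -0.60, RBM39 at -0.59, HNRNPL at -0.58, RBM25 at -0.52, HNRNPK at -0.47, HNRNPF at -0.34 and HNRNPH2 at -0.30. The smallest were ELAVL1 at -0.21, HNRNPC at -0.19, QKI at -0.19, TIAL1 at -0.15, HNRNPD at -0.13 and HNRNPR at -0.13. The call of HNRNPD was lost without a scaling factor (adjusted p = 0.4) and without vehicle library 1 of 6 h, either vehicle library of 24 h, or 3 µM libraries 1 or 3 of either time, with adjusted p of 0.055 to 0.16. That of HNRNPR was lost without a scaling factor (adjusted p = 0.33) and without vehicle library 1 of either time, 3 µM libraries 2 or 3 of 6 h, or 3 µM libraries 1 or 3 of 24 h, with adjusted p of 0.053 to 0.11. Without a scaling factor TIAL1 was not called either (adjusted p = 0.1).

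At 10 µM the difference was positive for 12 regulators. The values were RBM10 at 1.56, RBM5 at 1.52, HNRNPUL2 at 0.65, PTBP3 at 0.64, CELF1 at 0.52 and HNRNPH1 at 0.49, and further HNRNPUL1 at 0.40, HNRNPH3 at 0.32, KHDRBS1 at 0.28, HNRNPM at 0.21, HNRNPU at 0.21 and HNRNPAB at 0.14. A positive value means a higher change at 24 h than at 6 h. For 20 regulators it was negative. The values were HNRNPDL at -1.43, RBM3 at -1.12, PTBP2 at -0.86, HNRNPA1 at -0.79, HNRNPA0 at -0.74, HNRNPA3 at -0.74 and HNRNPL at -0.71. Next came HNRNPLL at -0.64, RBM25 at -0.63, HNRNPA2B1 at -0.63, RBM39 at -0.61, HNRNPK at -0.51, QKI at -0.36 and HNRNPF at -0.35. The smallest were HNRNPH2 at -0.33, HNRNPC at -0.30, TIAL1 at -0.22, HNRNPR at -0.17, HNRNPD at -0.15 and ELAVL1 at -0.15. The call of HNRNPD was lost without vehicle library 1 of 6 h (adjusted p = 0.065). Without a scaling factor HNRNPD, HNRNPR and ELAVL1 were not called (adjusted p = 0.31, 0.094 and 0.24).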

How the results depend on the processing

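Over 9 comparisons and 36 regulators, 324 values, DESeq2 kept direction and call in 313, RLE size factors in 318, no count filter in 318, the stricter filter in 307, a fit of only the groups compared in 288 and no scaling factor in 281. Leaving out 1 library kept 1937 of 2016. A change of sign between values called in neither fit counts as kept. Without a scaling factor 3 values reversed at 24 h: HNRNPUL1 (0.01) and HNRNPH3 (0.02) at 3 µM, and HNRNPA3 (0.08) at 10 µM. Higher calls at 24 h were 11, 8 and 9 at 3 µM and 11, 8 and 10 at 10 µM, against 4 each, without a scaling factor, with the stricter filter and with only the groups compared. With only the groups compared, the calls between doses were 4 higher at 6 h (against 8), and 2 higher and 12 lower at 24 h (against 0 and 6), and vehicle at 24 h against 6 h had 7 higher and 7 lower (against 4 and 3). The causes were not tested. With 1 library left out, higher calls ranged from 2 to 3 at 3 µM and 24 h, from 5 to 8 between doses at 6 h, and from 1 to 3 in vehicle. Where this left 1 vehicle library, that library was assumed to vary like the other groups. No pairing by replicate number was seen in deviations from group means. Same-numbered libraries correlated at r from -0.269 to 0.271, over 0.1 in 4 of 36 pairs. Other pairs correlated at r from -0.302 to 0.269, over 0.1 in 15 of 70. Deviations from a mean of 2 or 3 libraries depend on each other, so that this check cannot show that the cultures were unpaired. With the replicate number as a block, 319 of 324 values were kept, and the calls at 10 µM and 6 h were 17 higher and 17 lower. Several calls of about 0.1 on the log2 scale, HNRNPA3 at 3 µM and 24 h among them, were lost without single libraries.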

Other observations

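RBM5 and RBM10, the deepest falls at 6 h, also had the most annotated exons of the 36 regulators, 25 and 24. Across the 36 genes, which share their libraries, Pearson's r between exon number and the log2 change at 6 h was -0.38 at each dose, with Spearman's rho of -0.24 and -0.25. Without RBM5 and RBM10, r over 34 genes was -0.06 at 3 µM and -0.10 at 10 µM, so that the 6 h relation rests on these 2 genes. At 24 h r was 0.29 at 3 µM and 0.27 at 10 µM, and 0.22 and 0.21 without RBM5 and RBM10. RBM25 and RBM39, next with 20 and 18 exons, were both higher at 6 h.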
